A study of Mus musculus with 30 samples.

Results

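Collagen genes were followed across whole B16 melanomas that carried no interferon gene or secreted 1 of 2 interferon alpha subtypes. A gene was included when its symbol was Col, a number, the letter a and a second number, and when its mean over the 30 tumors was at least 10 counts. The count table listed 44 such genes, and 38 of them passed the count minimum, out of 15926 genes that passed it among 39676 listed. The 38 genes hold the major chains of fibrils and basement membranes and most of the minor ones. The other 6 are described by their counts only.

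The tumors came from B16-F10 cells, a mouse melanoma line of C57BL/6 origin, grown under the skin of female C57BL/6 mice, typically young adults, and taken at day 8. There were 10 tumors each of B16-GFP (empty vector with green fluorescent protein), B16-IFNA4 (murine IFNα4 and green fluorescent protein) and B16-IFNA9 (murine IFNα9 and green fluorescent protein). Cells of all 3 types also carried glycoprotein B of herpes simplex virus and firefly luciferase, all delivered by retroviral vectors. The transgenes were carried by the melanoma cells alone, and each type came from 1 transduced line, so that the interferon and the line cannot be told apart. The labels call the tumors biological replicates, and no label gives a batch.

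Collagens are triple-helical proteins of the extracellular matrix. Fibrillar collagens (types I, II, III, V, XI, XXIV and XXVII) build the fibers of skin, tendon and cartilage, and in tumors types I and III are made mainly by fibroblasts. Type IV collagen forms the sheet-like network of basement membranes under epithelium and around vessels, and its 6 genes lie in neighboring pairs that are read in opposite directions. Other collagens decorate fibrils (the FACIT class), form beaded filaments (type VI), anchor the epidermis (types VII and XVII) or cross the cell membrane. Types II, IX, X and XI are best known from cartilage.

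The deposited values were read counts per gene, and each tumor held 14598517 to 19788383 counts. Levels are given as CPM, counts relative to the size of the library, after scaling by the trimmed mean of M values (TMM), a scaling that levels libraries on their typical gene. As a check of the labels, Ifna4 lay between 4.66 and 9.59 CPM in the B16-IFNA4 tumors and at 0 in all others, and Ifna9 lay between 3.23 and 9.10 CPM in the B16-IFNA9 tumors and at 0 in all others. One library stood apart. B16-GFP replicate 7 had the lowest level of its type for 25 of the 38 collagen genes, and the highest for 2. Its 3 listed melanocyte markers summed to 22818 CPM against a median of 8969 for the type, whereas its 8 listed fibroblast markers summed to 504 CPM, its keratinocyte markers to 827 CPM and its endothelial markers to 202 CPM, each the lowest of the type. B16-IFNA9 replicate 10 was lowest of its type for 15 of the 38 genes, and it also held the highest melanocyte sum of its type, 8916 CPM. Fewer cells of a kind and less RNA per cell cannot be told apart in whole-tumor libraries.

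The 3 tumor types held similar amounts of collagen mRNA in all. The 44 genes together took 0.336% to 1.61% of all counts in B16-GFP (median 1.29%), 1.08% to 1.77% in B16-IFNA4 (median 1.26%) and 1.02% to 1.74% in B16-IFNA9 tumors (median 1.31%). The ranges overlapped and B16-GFP had the widest, with replicate 7 as its lowest tumor. Per kilobase of the longest coding transcript, the mean over the 30 tumors was highest for Col3a1 (804 CPM per kilobase), Col1a2 (496) and Col1a1 (266), followed by Col17a1 (96.5) and Col6a1 (95.9). Type IV chains ranged from 58.7 CPM per kilobase for Col4a1 down to 0.728 for Col4a3, and all 7 cartilage genes lay at 1.4 or less.

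In the B16-IFNA4 tumors 20 of the 38 collagen genes changed against B16-GFP, 13 higher and 7 lower, at an adjusted p under 0.05 (edgeR, quasi-likelihood F-test, Benjamini-Hochberg adjustment over all genes tested). Of all genes tested, 65.4% changed in this comparison, 31.3% higher and 34.1% lower, against 52.6% of the collagen genes. For 2 collagen genes, Col8a2 and Col9a1, the levels of both types were fully apart, against 18.5% of all genes. Under the same test, 14 collagen genes changed in B16-IFNA9 against B16-GFP, 6 higher and 8 lower, against 55.7% of all genes, 26.9% higher and 28.9% lower. Only 1 collagen gene, Col9a1, had tumors that did not overlap there, against 7.79% of all genes. Scaling by library totals in place of TMM moved this split to 10 higher and 6 lower, and the share of higher genes among all genes called from 48.2% to 58.3%. The median log2 fold change over the 38 genes was 0.10 in B16-IFNA4 and 0.00 in B16-IFNA9, and over all genes tested it was 0.01 and -0.003. Both comparisons share the B16-GFP tumors. Without B16-GFP replicate 7, 20 genes (12 higher, 8 lower) and 17 genes (7 higher, 10 lower) changed.

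**Figure D1:**
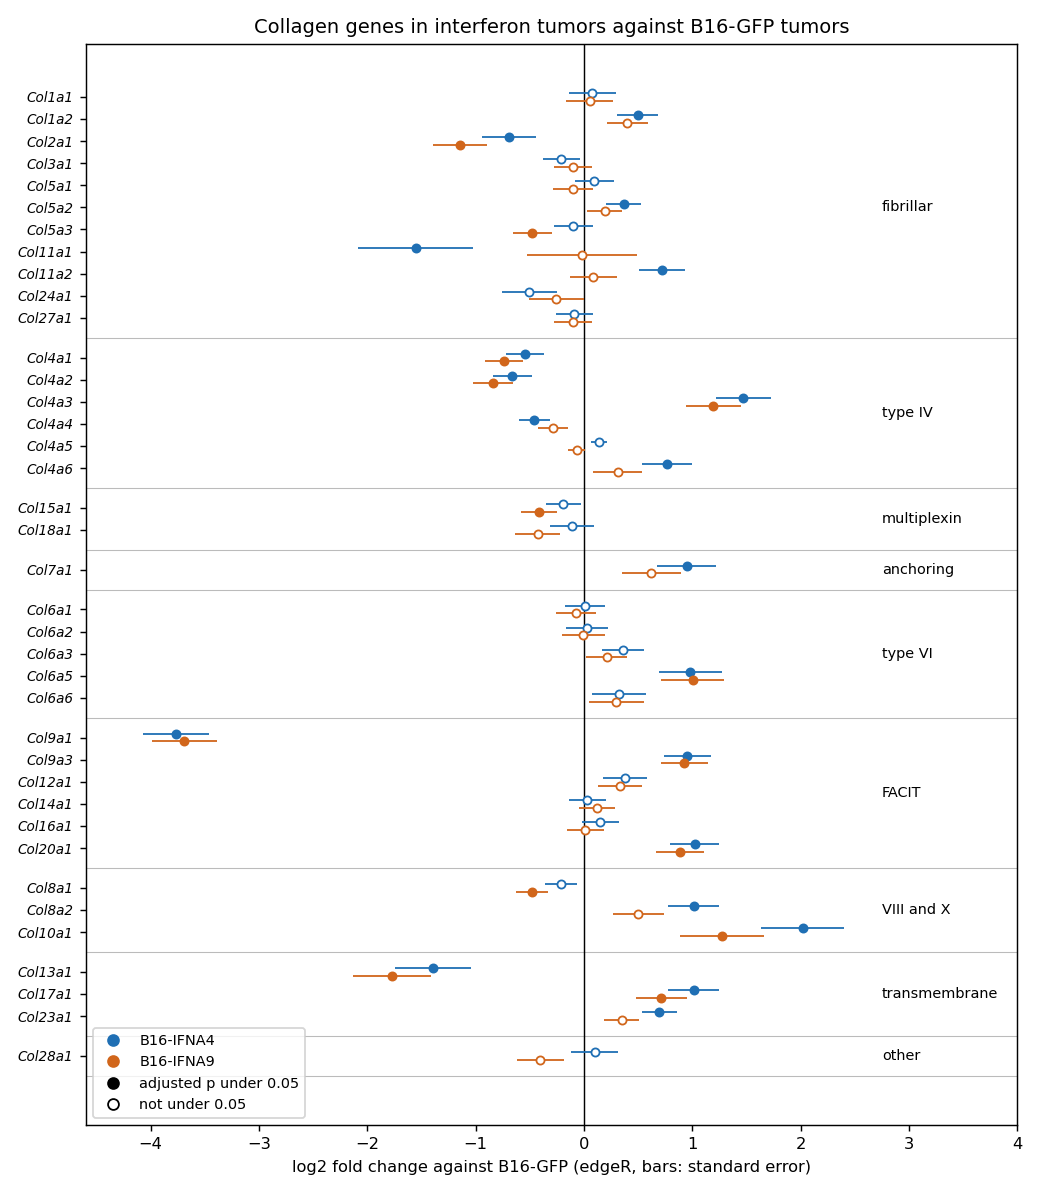
Log2 fold change of the 38 collagen genes in B16-IFNA4 (blue) and B16-IFNA9 tumors (orange) against B16-GFP tumors, grouped by structural class, with bars for the standard error and filled points for an adjusted p under 0.05. Most genes lie within 1 log2 unit of 0, Col9a1 lies at -3.77 and -3.69, and type IV chains fall on both sides of 0.

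Type I and type III collagen, the bulk of the fibers, changed little as a whole, while the balance between the chains of type I shifted. Col1a1 encodes the α1 chain, present as a pair in each type I molecule. It ranged from 539 to 2529 CPM in B16-GFP (median 1439), from 1203 to 2575 CPM in B16-IFNA4 (median 1552) and from 1054 to 2304 CPM in B16-IFNA9 tumors (median 1571). The types overlapped along nearly their whole ranges, and the log2 fold changes were 0.07 ± 0.22 (standard error, adjusted p = 0.771) in B16-IFNA4 and 0.05 ± 0.22 (adjusted p = 0.853) in B16-IFNA9. Col1a2 encodes the α2 chain of the same molecule. Its levels were 687 to 3179.6 CPM in B16-GFP (median 2069), 2406 to 4410.3 CPM in B16-IFNA4 (median 2907) and 2089 to 3689 CPM in B16-IFNA9 tumors (median 2899.8). Only 2 tumors of either interferon type lay above all B16-GFP tumors. It rose in B16-IFNA4 by 0.49 ± 0.19 (1.41-fold, adjusted p = 0.0216). This call was lost without B16-IFNA4 replicate 9, at an adjusted p of 0.0520. In B16-IFNA9 the log2 fold change was 0.40 ± 0.19 (adjusted p = 0.0691), and it passed the threshold without B16-GFP replicate 3, 4 or 9 or B16-IFNA9 replicate 5, at adjusted p from 0.0323 to 0.0491. With library totals and with DESeq2 it passed too (adjusted p = 0.0352 and 0.0475). Col3a1, the only chain of type III collagen, had 1536 to 6825 CPM in B16-GFP (median 4920.3), 3003 to 5347 CPM in B16-IFNA4 (median 4171) and 3476 to 5536 CPM in B16-IFNA9 tumors (median 4416). All interferon tumors lay within the B16-GFP range, with log2 fold changes of -0.21 ± 0.17 (adjusted p = 0.286) and -0.10 ± 0.17 (adjusted p = 0.630).

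The ratio of Col1a1 to Col1a2 within each tumor varied less than either gene. On the log2 scale it was -0.51 ± 0.20 (SD, n = 10) in B16-GFP, -0.92 ± 0.17 in B16-IFNA4 and -0.83 ± 0.16 in B16-IFNA9 tumors, with median ratios of 0.735, 0.532 and 0.550. Of the B16-IFNA4 tumors 6, and of the B16-IFNA9 tumors 4, lay below every B16-GFP tumor, and the rest overlapped with the lowest of them. The ratio fell by 0.40 in B16-IFNA4 (adjusted p = 0.00324) and by 0.32 in B16-IFNA9 tumors (adjusted p = 0.00729), in permutation tests adjusted over 9 ratio comparisons. Between both interferon types it differed by 0.09 (adjusted p = 0.323). The ratio of Col3a1 to Col1a1 was 1.69 ± 0.31 in B16-GFP, 1.39 ± 0.31 in B16-IFNA4 and 1.51 ± 0.25 in B16-IFNA9 tumors on the log2 scale, and neither interferon type passed the threshold against B16-GFP (permutation tests, adjusted p = 0.0765 and 0.251).

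**Figure D2:**
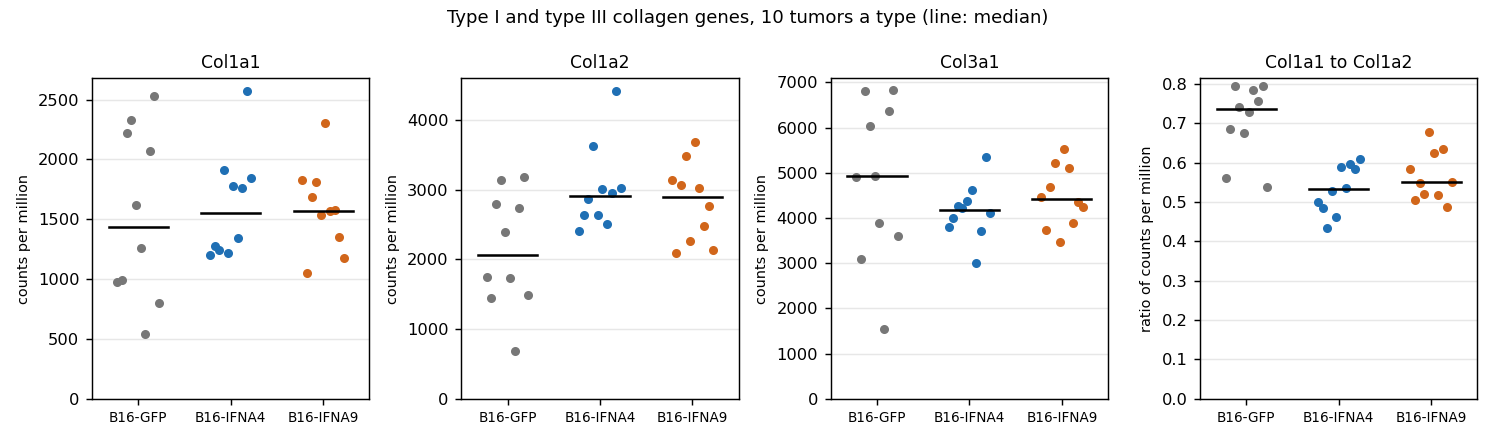
CPM of Col1a1, Col1a2 and Col3a1 in each tumor, and the ratio of Col1a1 to Col1a2 in the same tumors, with a line at the median of 10 tumors. The 3 genes overlap between the types, whereas the ratio has a median of 0.735 in B16-GFP tumors and of 0.532 and 0.550 in B16-IFNA4 and B16-IFNA9 tumors.

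The other fibrillar chains outside cartilage had log2 fold changes from -0.50 to 0.37 against B16-GFP. Type V chains join type I fibrils and limit their width. Col5a1 had log2 fold changes of 0.10 and -0.10 (adjusted p = 0.653 and 0.654). Col5a2 rose in B16-IFNA4 (0.37 ± 0.16, adjusted p = 0.0460), with 349.8 to 613 CPM against 156 to 552 CPM in B16-GFP. That call sat at the edge: it was lost in 16 of 30 fits that each left out 1 tumor, including the fit without B16-GFP replicate 7 (adjusted p = 0.0642), with adjusted p from 0.0501 to 0.0969 where it was lost. Other count filters and a fit of only the tumors compared lost it too (adjusted p from 0.0532 to 0.0603). Col5a3, the least abundant type V chain per kilobase, fell in B16-IFNA9 by 0.48 ± 0.18 (adjusted p = 0.0248), with 79.7 to 139 CPM against 57.4 to 227 CPM in B16-GFP. Its call was lost without B16-GFP replicate 3, 8 or 9 (adjusted p from 0.0535 to 0.0641), with library totals (-0.38, adjusted p = 0.0846) and with only the tumors compared (adjusted p = 0.0514). The minor chains Col24a1 and Col27a1 had log2 fold changes of -0.50 and -0.09 in B16-IFNA4 and of -0.25 and -0.10 in B16-IFNA9, none past the threshold. Col24a1 passed it in B16-IFNA4 without B16-GFP replicate 7 (adjusted p = 0.0244) or B16-IFNA4 replicate 2 (adjusted p = 0.0356). In all, 2 of the 8 fibrillar genes outside cartilage rose in B16-IFNA4 and none fell, and in B16-IFNA9 none rose and 1 fell, beside 65.4% and 55.7% of all genes called in either direction.

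Type IV collagen had chains called lower and chains called higher. The major chains of vessel and general basement membranes, Col4a1 and Col4a2, fell in both interferon types, while Col4a3, a chain of specialized basement membranes such as that of the kidney glomerulus, rose in both. In B16-IFNA4, 2 of the 6 genes rose and 3 fell, beside 31.3% higher and 34.1% lower among all genes tested, and in B16-IFNA9 1 rose and 2 fell, beside 26.9% and 28.9%. Neighboring genes of the 3 pairs start close to each other on opposite strands. In the GENCODE M21 annotation of GRCm38, the transcripts of Col4a1 (chr8:11198423-11312826, minus strand) and Col4a2 (chr8:11312805-11449287, plus strand) overlap by 22 bases at their starts. Col4a4 (chr1:82448423-82586849, minus strand) and Col4a3 (chr1:82586921-82722059, plus strand) leave 71 bases between them, and Col4a6 and Col4a5 on chromosome X leave 1308 bases. The stretches that join the first and the second pair are shown on the plus strand because the chains of these pairs moved together and apart, with the GC box letters GGGCGG in capitals where present on either strand.
Col4a1 and Col4a2 shared start, chr8:11312805-11312826: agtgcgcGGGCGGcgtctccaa
between Col4a4 and Col4a3, chr1:82586850-82586920: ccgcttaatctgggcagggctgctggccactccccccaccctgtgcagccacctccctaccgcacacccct
The shared start of Col4a1 and Col4a2 holds the annotated first bases of both genes, and the second stretch lies between the annotated starts of its pair.

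Col4a1 had 265 to 921 CPM in B16-GFP (median 486), 242 to 453 CPM in B16-IFNA4 (median 337) and 191 to 470.4 CPM in B16-IFNA9 tumors (median 299). The ranges overlapped, with 1 B16-IFNA4 and 3 B16-IFNA9 tumors below every B16-GFP tumor. It fell by 0.55 ± 0.18 in B16-IFNA4 (1.46-fold lower, adjusted p = 0.00829) and by 0.74 ± 0.18 in B16-IFNA9 (1.67-fold lower, adjusted p = 8.87e-04). Col4a2 followed its neighbor, with 166 to 524 CPM (median 290.0), 137 to 252 CPM (median 195) and 101 to 259.6 CPM (median 165). Its ranges overlapped too, with 2 and 5 tumors below all of B16-GFP. It fell by 0.66 ± 0.18 (adjusted p = 0.00219) and by 0.84 ± 0.18 (adjusted p = 2.78e-04). The log2 ratio of Col4a1 to Col4a2 was 0.75 ± 0.10 (SD, n = 10) in B16-GFP, 0.87 ± 0.09 in B16-IFNA4 and 0.86 ± 0.05 in B16-IFNA9 tumors, higher by 0.12 (permutation test, adjusted p = 0.0213) and by 0.11 (adjusted p = 0.0142).

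Col4a3 had 0.981 to 4.89 CPM in B16-GFP (median 3.43), 4.77 to 12.2 CPM in B16-IFNA4 (median 9.49) and 3.28 to 10.3 CPM in B16-IFNA9 tumors (median 6.28). In each interferon type 8 of 10 tumors lay above all B16-GFP tumors. It rose by 1.47 ± 0.25 (2.77-fold, adjusted p = 1.04e-05) and by 1.19 ± 0.25 (2.29-fold, adjusted p = 2.20e-04). Col4a3 shares 563 exon bases, 5.65% of its own, with C430014B12Rik on the opposite strand. That gene had median levels of 0.230, 0.409 and 0.283 CPM in B16-GFP, B16-IFNA4 and B16-IFNA9 tumors, and the strand setting of the counting is not given in the sources used here, so reads at those bases cannot be told apart. Col4a4, the neighbor that joins Col4a3 in the same molecule, went the other way, with 16.3 to 39.2 CPM (median 20.9), 12.4 to 21.0 CPM (median 16.2) and 14.0 to 25.1 CPM (median 17.6). Below all B16-GFP tumors lay 5 tumors of B16-IFNA4 and 2 of B16-IFNA9. It fell by 0.46 ± 0.14 in B16-IFNA4 (adjusted p = 0.00564). In B16-IFNA9 the log2 fold change was -0.28 ± 0.14 (adjusted p = 0.0857), which passed the threshold without B16-GFP replicate 3 or B16-IFNA9 replicate 10 (adjusted p = 0.0488 and 0.0413). Without B16-GFP replicate 7 it was -0.16 (adjusted p = 0.30), and in B16-IFNA4 -0.32 (adjusted p = 0.0283). Of the X-linked pair, Col4a5 hardly moved (0.14 and -0.07, adjusted p = 0.118 and 0.465), and Col4a6 rose in B16-IFNA4 (0.77 ± 0.23, adjusted p = 0.00443) but was not called in B16-IFNA9 (0.31 ± 0.23, adjusted p = 0.254).

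**Figure D3:**
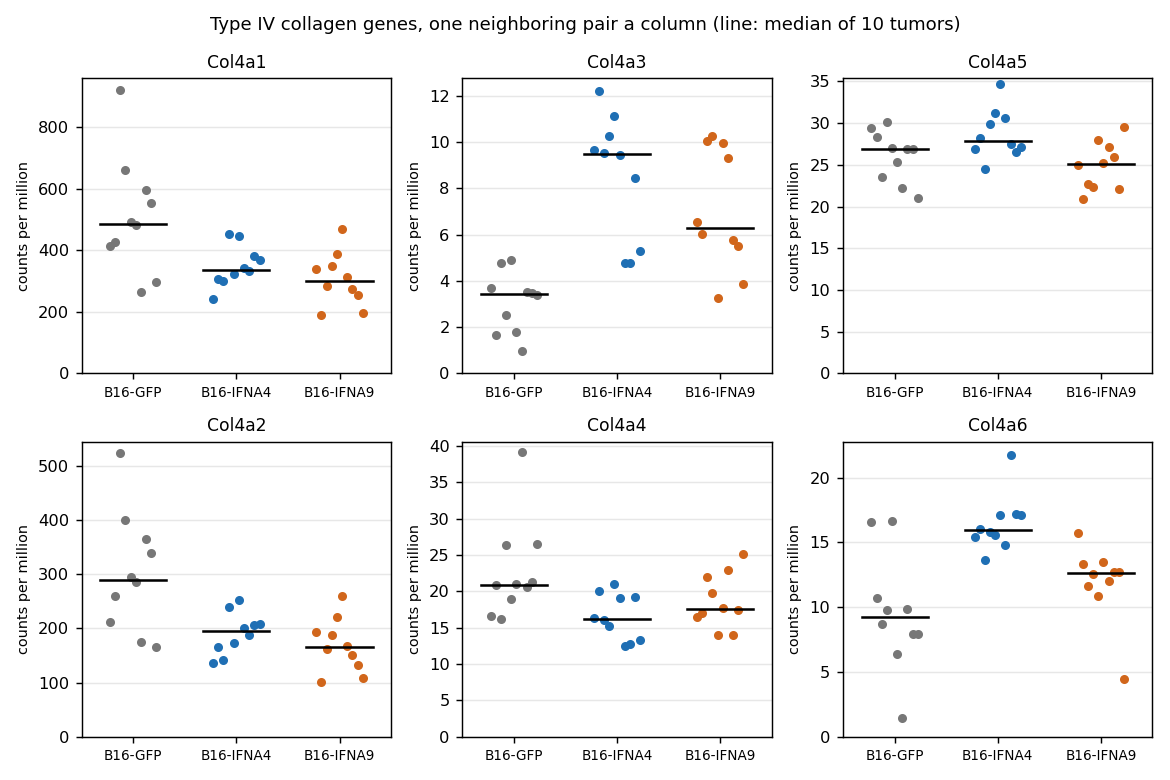
CPM of the 6 type IV collagen genes in each tumor, with a neighboring pair in each column and a line at the median of 10 tumors. Medians of Col4a1 and Col4a2 step down from B16-GFP to B16-IFNA9, those of Col4a3 lie at 3.43, 9.49 and 6.28 CPM, and Col4a6 has 1 very low tumor in B16-GFP and 1 in B16-IFNA9.

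Endothelial markers moved with Col4a1 and Col4a2, and their part in the result was not tested. Of 8 endothelial markers, 5 fell and 1 (Kdr) rose in B16-IFNA4, and 6 fell and none rose in B16-IFNA9, where 34.1% and 28.9% of all genes fell. Their summed level ran from 202 to 488 CPM in B16-GFP, from 265 to 370.0 CPM in B16-IFNA4 and from 132 to 249.7 CPM in B16-IFNA9 tumors. Of 7 listed pericyte and smooth muscle markers, 1 rose and 2 fell in B16-IFNA4, and 3 fell in B16-IFNA9, beside the same shares of all genes, with a median log2 fold change of 0.16 and -0.30. Rgs5, a pericyte gene and the one with the largest change among them, fell by 1.90 and decreased by 2.22 on the log2 scale (adjusted p = 9.45e-11 and 9.62e-12). None of these markers was at 0 in any type. Across the tumors of a type, the log2 CPM of Col4a1 and of Pecam1, an endothelial adhesion protein, correlated with r = 0.84 in B16-GFP (rho = 0.75), 0.39 in B16-IFNA4 (rho = 0.32) and 0.81 in B16-IFNA9 (rho = 0.89). Permutation tests adjusted over 12 relations gave p = 0.00884, 0.318 and 0.0114 for r and 0.0442, 0.401 and 0.00400 for rho. Without the 2 tumors farthest from the median of Pecam1, r was 0.84, -0.05 and 0.87. The number of tumors in a type limits these values, and no test compared them between types.

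The partners of type IV collagen in basement membranes were mostly called higher or not called. Of 12 listed genes for laminins and heparan sulfate proteoglycans, 7 rose and none fell in B16-IFNA4, and 5 rose and none fell in B16-IFNA9. Of all genes, 31.3% rose and 34.1% fell in B16-IFNA4, and 26.9% rose and 28.9% fell in B16-IFNA9. Agrn, the proteoglycan agrin, rose most, by 1.35 (adjusted p = 3.36e-10) and 0.97 (adjusted p = 3.34e-07). Lama3 and Lamb3, laminin chains of the basement membrane under the epidermis, rose by 0.95 and 0.86 in B16-IFNA4 and by 0.90 and 0.68 in B16-IFNA9. B16-GFP replicate 7 had the lowest sum of its type for these partners (560 CPM) and for keratinocyte markers (827 CPM), of which 4 of 5 rose in B16-IFNA4 and 2 of 5 in B16-IFNA9, and their part was not tested. Without that tumor, 7 partners rose and 1 (Lamb1) fell in B16-IFNA4, and 5 rose and none fell in B16-IFNA9. The multiplexins of the basement membrane zone fell or stayed. Col15a1 fell in B16-IFNA9 by 0.42 ± 0.16 (adjusted p = 0.0300), a call lost without B16-GFP replicate 3, 4 or 8 or B16-IFNA9 replicate 2, 9 or 10 (adjusted p from 0.0569 to 0.0708). The call was also lost with library totals (-0.32, adjusted p = 0.118) and with only the tumors compared (adjusted p = 0.0639), and in B16-IFNA4 its log2 fold change was -0.19 (adjusted p = 0.299). Col18a1, the source of the fragment endostatin, had log2 fold changes of -0.11 and -0.43 (adjusted p = 0.641 and 0.0746), and it passed in B16-IFNA9 without B16-GFP replicate 7 or 10 or B16-IFNA9 replicate 6 (adjusted p from 0.0290 to 0.0335).

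Collagens that fasten the epidermis rose in B16-IFNA4, and Col17a1 also in B16-IFNA9. Col7a1 encodes the anchoring fibrils below the skin's basement membrane, and Col17a1 a membrane collagen of hemidesmosomes, the junctions of basal keratinocytes. Col17a1 had 58.1 to 581 CPM in B16-GFP (median 351), 505 to 960.5 CPM in B16-IFNA4 (median 633) and 189 to 746 CPM in B16-IFNA9 tumors (median 574). Of the B16-IFNA4 tumors 9, and of the B16-IFNA9 tumors 5, lay above all B16-GFP tumors. It rose by 1.01 ± 0.24 (adjusted p = 4.94e-04) and by 0.71 ± 0.24 (adjusted p = 0.0116). Col7a1 rose in B16-IFNA4 by 0.95 ± 0.27 (adjusted p = 0.00304), with 25.1 to 52.5 CPM against 2.14 to 31.5 CPM. In B16-IFNA9 it stood at the threshold, with 15.5 to 42.9 CPM, a log2 fold change of 0.62 ± 0.27 and an adjusted p of 0.0505, and 10 of 30 fits without 1 tumor passed it (adjusted p from 0.0284 to 0.0491). DESeq2, its size factors, library totals and another count filter passed it too (adjusted p from 0.0330 to 0.0465). The fits without a count filter and of only the tumors compared did not. Keratinocyte markers were counted beside them, and their part was not tested. Of 5 listed, 4 rose in B16-IFNA4 and 2 in B16-IFNA9, where 31.3% and 26.9% of all genes rose, none fell, and none was at 0. Their sum ran from 827 to 6556 CPM in B16-GFP, from 6007 to 9190.2 CPM in B16-IFNA4 and from 1819 to 7743 CPM in B16-IFNA9 tumors. The lowest sum of B16-GFP and of B16-IFNA9 fell in the tumors with the lowest Col17a1, replicates 7 and 10.

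The cartilage collagens had genes called in both directions. Of the 6 genes that passed the count minimum, 3 rose and 3 fell in B16-IFNA4, where 31.3% and 34.1% of all genes did, and 2 rose and 2 fell in B16-IFNA9, where 26.9% and 28.9% did. Both tallies include Col9a1 and Col10a1, which passed the minimum only through the tumors where they were high. Col9a1, the α1 chain of the fibril-decorating type IX, showed the largest change of any collagen gene. It had 2.86 to 16.9 CPM in B16-GFP (median 5.79), 0.175 to 0.850 CPM in B16-IFNA4 (median 0.463) and 0.195 to 0.952 CPM in B16-IFNA9 tumors (median 0.515). In counts these were 52 to 190, 3 to 15 and 3 to 16, with medians of 99.5, 8 and 8.5, so that the gene passed the minimum of 10 only through its B16-GFP tumors. All interferon tumors lay below all B16-GFP tumors. It fell by 3.77 ± 0.30 (13.7-fold lower, adjusted p = 8.91e-12) and fell by 3.69 ± 0.30 (12.9-fold lower, adjusted p = 2.57e-11), a description for the same reason, and both interferon types differed by 0.08 ± 0.32 (adjusted p = 0.895). Its partner Col9a3 went up, with 0.563 to 2.18 CPM (median 1.73), 1.60 to 3.39 CPM (median 3.02) and 1.90 to 4.03 CPM (median 2.76). Of the B16-IFNA4 tumors 9, and of the B16-IFNA9 tumors 7, lay above all B16-GFP tumors. It rose by 0.95 ± 0.21 (adjusted p = 3.02e-04) and by 0.93 ± 0.21 (adjusted p = 5.80e-04). Col9a3 shares 234 exon bases, 6.07% of its own, with Tcfl5 on the opposite strand, and Tcfl5 rose too, by 1.43 (adjusted p = 4.29e-07) and 1.06 (adjusted p = 6.05e-05), so that reads at those bases cannot be told apart. The third chain, Col9a2, was under the count minimum, with medians of 7, 8 and 8.5 counts.

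Melanocyte markers fell with Col9a1, and their part in its change was not tested. All 3 listed (Tyr, Tyrp1 and Mitf) fell in both interferon types, where 34.1% and 28.9% of all genes fell, and their sum ran from 7214 to 22818 CPM in B16-GFP, from 2157 to 3630.4 CPM in B16-IFNA4 and from 3367 to 8916 CPM in B16-IFNA9 tumors. The fall of the markers was smaller, with log2 fold changes from -1.97 to -1.0 in B16-IFNA4 and from -1.17 to -0.59 in B16-IFNA9. Within B16-GFP the log2 CPM of Col9a1 and of Tyrp1, a pigment enzyme, correlated with r = 0.92 and rho = 0.92 (permutation tests adjusted over 12 relations, p = 0.00168 and 0.00400). This pair was chosen after seeing the data, and the adjustment does not account for that choice. Without the 2 tumors farthest from the median of Tyrp1, replicates 7 and 10, r was 0.76 (permutation test, unadjusted p = 0.0122). In B16-IFNA4 and B16-IFNA9 r was -0.02 and 0.28 (permutation tests, adjusted p = 0.962 and 0.515) and rho was -0.02 and 0.48 (adjusted p = 0.973 and 0.222), at 3 to 16 counts of Col9a1 per tumor. Without the 2 farthest tumors r was 0.47 and 0.63 there.

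Col2a1, the main collagen of cartilage fibrils, had 4.42 to 17.4 CPM in B16-GFP (median 9.86), 2.77 to 12.1 CPM in B16-IFNA4 (median 6.20) and 2.63 to 8.42 CPM in B16-IFNA9 tumors (median 4.59). The ranges overlapped, with 2 and 4 tumors below all B16-GFP tumors. It fell by 0.69 ± 0.25 (adjusted p = 0.0156) and by 1.15 ± 0.25 (adjusted p = 3.16e-04). Col10a1, the network collagen of hypertrophic cartilage, was among the least abundant, with 0 to 12 counts per B16-GFP tumor, 5 to 63 per B16-IFNA4 tumor and 7 to 35 per B16-IFNA9 tumor. The medians were 6.5, 27.5 and 17 counts, so that the gene passed the minimum of 10 only through the interferon tumors, and its rise is a description. In CPM it had medians of 0.389, 1.64 and 1.01, with highest tumors at 0.783, 3.23 and 1.88 and lowest at 0, 0.291 and 0.370. Above all B16-GFP tumors lay 8 tumors of B16-IFNA4 and 6 of B16-IFNA9. It rose by 2.02 ± 0.38 (4.06-fold, adjusted p = 3.73e-05) and by 1.28 ± 0.39 (2.42-fold, adjusted p = 0.00633).

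The type XI chains, which lie inside cartilage fibrils with type II, were the only collagen genes called between the interferon types. Col11a1 was high in a few tumors of B16-GFP and B16-IFNA9 and in none of B16-IFNA4. It had 3.56 to 31.6 CPM in B16-GFP (median 5.32), 1.25 to 4.49 CPM in B16-IFNA4 (median 3.34) and 0.738 to 33.9 CPM in B16-IFNA9 tumors (median 3.07). The high tumors were B16-GFP replicates 1 and 2 (14.6 and 31.6 CPM) and B16-IFNA9 replicates 3, 4 and 6 (22.0, 14.6 and 33.9 CPM), and no other tumor exceeded 9.45 CPM. Below all B16-GFP tumors lay 7 tumors of B16-IFNA4 and 6 of B16-IFNA9. Col11a1 fell in B16-IFNA4 by 1.56 ± 0.53 (adjusted p = 0.0113), a call lost without B16-GFP replicate 2 (-1.11, adjusted p = 0.0516). In B16-IFNA9 its log2 fold change was -0.02 ± 0.51 (adjusted p = 0.981), and it ran from -0.56 to 0.45 without 1 tumor. Acan, the proteoglycan aggrecan of cartilage, was high in the same tumors, with 1.20 and 2.72 CPM in those of B16-GFP and 5.93, 3.76 and 7.76 CPM in those of B16-IFNA9, against 0 to 1.01 CPM in all others. Col11a2, which encodes another chain of the molecule, rose in B16-IFNA4 by 0.72 ± 0.21 (adjusted p = 0.00424), with 1.78 to 4.53 CPM against 1.11 to 2.99 CPM in B16-GFP and 1.08 to 2.31 CPM in B16-IFNA9, where its log2 fold change was 0.09 (adjusted p = 0.747).

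**Figure D4:**
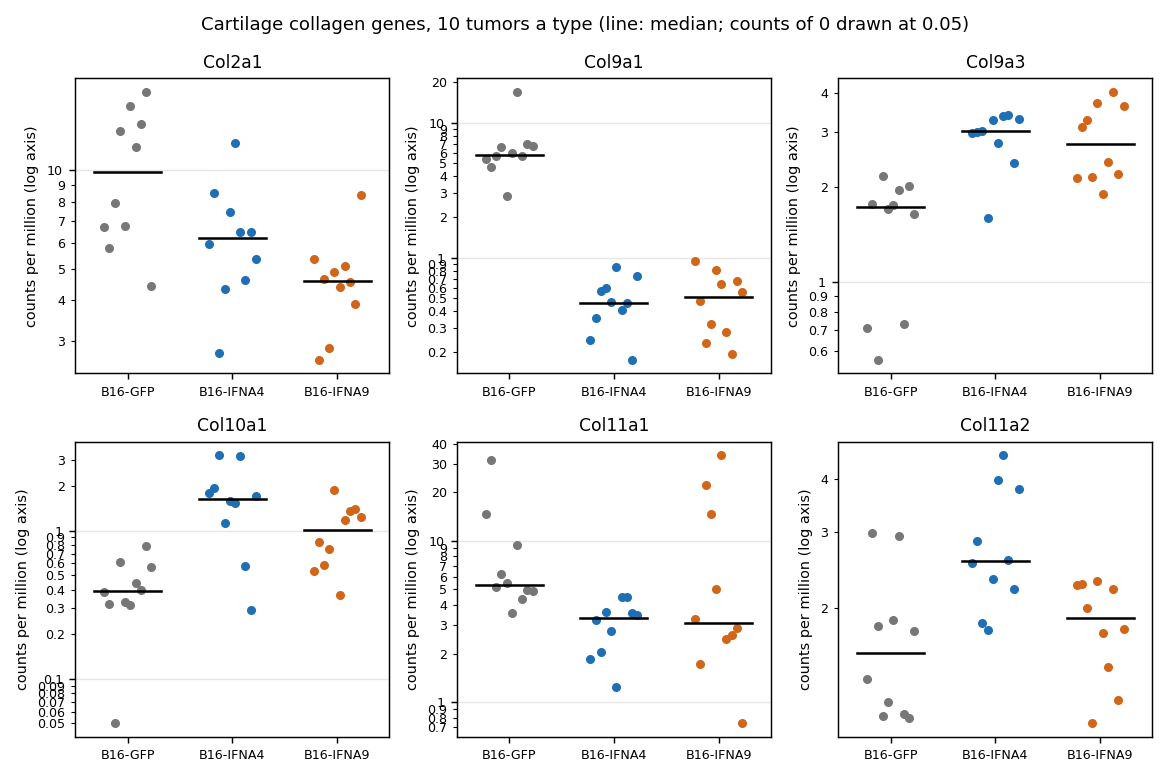
CPM of the 6 cartilage collagen genes that passed the count minimum, in each tumor on a log axis with a line at the median of 10 tumors and the 1 tumor with no Col10a1 count drawn at 0.05. Col9a1 separates all interferon tumors from B16-GFP tumors, whereas Col11a1 has 2 high tumors in B16-GFP and 3 in B16-IFNA9.

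Other cartilage genes were also called in both directions against B16-GFP. Of 15 listed, 9 passed the count minimum, of which 3 rose and 4 fell in B16-IFNA4 and 3 rose and 3 fell in B16-IFNA9, beside 31.3% and 34.1%, and 26.9% and 28.9%, of all genes. Between the interferon types 3 of the 9 were higher in B16-IFNA9 and none lower, beside 10.5% and 7.25% of all genes. These were Acan, Matn3 and Sox5, and the count was also 3 without B16-IFNA9 replicate 3, 4 or 6, each left out alone. Each of those fits kept the remaining tumors high in Acan, so they cannot show whether its call rests on such tumors. Outside replicates 3, 4 and 6 Acan had at most 0.416 CPM in B16-IFNA9, against 0 to 0.233 CPM in B16-IFNA4. It passed the count minimum only through a few high tumors, so its call is a description. Matn3, a matrix protein of growth plates, fell by 3.42 (adjusted p = 1.50e-11) and by 1.74 (adjusted p = 1.35e-06). It had 1.59 to 4.28 CPM in B16-GFP, 0.113 to 0.561 CPM in B16-IFNA4 and 0.390 to 1.35 CPM in B16-IFNA9 tumors. Matn3 passed the count minimum only through its B16-GFP tumors, so its calls are a description. Sox5 and Sox6, transcription factors that drive cartilage genes with Sox9, fell in B16-IFNA4 by 1.28 and 0.60 and in B16-IFNA9 by 0.61 and 0.84. Sox9 itself rose by 0.64 in both (adjusted p = 0.00350 and 0.00449). The 9 listed markers of cartilage cells summed to 3.24 to 6.98 CPM in B16-GFP and 2.01 to 7.04 CPM in B16-IFNA4 tumors. In B16-IFNA9 tumors the sum ran from 2.69 to 10.8 CPM. Replicates 3, 4 and 6 there had 7.75, 7.04 and 10.8 CPM, and the others at most 4.36 CPM. Acan is 1 of these markers and made up 5.93, 3.76 and 7.76 CPM in those replicates, so their high sums are not separate from it. The part of cartilage cells in the cartilage collagens was not tested. Ucma had no count in 10, 10 and 9 tumors of the 3 types in that order, and Snorc in 9, 7 and 9.

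Of the remaining classes, the main chains of type VI collagen, which form beaded filaments around cells, were among the steadiest collagen genes. Col6a1 and Col6a2 had log2 fold changes between -0.08 and 0.03 in both comparisons (adjusted p from 0.741 to 0.982), and Col6a3 of 0.36 and 0.21 (adjusted p = 0.0954 and 0.359), passing in B16-IFNA4 without B16-GFP replicate 3 (adjusted p = 0.0341). Col6a6 had 0.32 and 0.30 (adjusted p = 0.258 and 0.313). The rarer Col6a5 had 0.268 to 3.75 CPM in B16-GFP (median 2.12), 3.05 to 5.66 CPM in B16-IFNA4 (median 4.5) and 1.54 to 8.71 CPM in B16-IFNA9 tumors (median 3.11). Of the B16-IFNA4 tumors 8, and of the B16-IFNA9 tumors 4, lay above all B16-GFP tumors. It rose by 0.98 ± 0.29 (adjusted p = 0.00401) and by 1.00 ± 0.29 (adjusted p = 0.00437). Col6a5 shares 3.42% of its stretches of 50 bases, the read length, with Col6a6.

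The FACIT chains that bind type I fibrils in skin and tendon were not called. Col12a1 had log2 fold changes of 0.38 and 0.33, Col14a1 of 0.03 and 0.12 and Col16a1 of 0.15 and 0.01. Col20a1, a rare FACIT chain, had 1.14 to 3.45 CPM in B16-GFP (median 2.86), 2.25 to 7.15 CPM in B16-IFNA4 (median 5.38) and 2.42 to 6.74 CPM in B16-IFNA9 tumors (median 4.76). In each interferon type 8 tumors lay above all B16-GFP tumors. It rose by 1.02 ± 0.23 (adjusted p = 2.53e-04) and by 0.89 ± 0.23 (adjusted p = 0.00144).

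Type VIII collagen, a network collagen of vessels and of the cornea, had 1 chain called in each comparison. Col8a2 rose in B16-IFNA4 by 1.01 ± 0.24 (adjusted p = 4.31e-04), with 6.32 to 10.1 CPM above every B16-GFP tumor (0.892 to 6.26 CPM). In B16-IFNA9 it had 1.48 to 8.19 CPM and a log2 fold change of 0.50 (adjusted p = 0.0694), past the threshold without B16-GFP replicate 3 (adjusted p = 0.0355) or B16-IFNA9 replicate 10 (adjusted p = 0.0121). With library totals and with DESeq2 it passed too (adjusted p = 0.0460 and 0.0436). Col8a1 fell in B16-IFNA9 by 0.48 ± 0.15 (adjusted p = 0.00644), and its log2 fold change in B16-IFNA4 was -0.21 (adjusted p = 0.201).

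Among the collagens that cross the cell membrane, Col13a1, found at cell-matrix junctions, had 1.20 to 4.94 CPM in B16-GFP (median 2.33), 0.175 to 1.38 CPM in B16-IFNA4 (median 1.02) and 0 to 1.45 CPM in B16-IFNA9 tumors (median 0.630). Below all B16-GFP tumors lay 6 tumors of B16-IFNA4 and 8 of B16-IFNA9. It fell by 1.39 ± 0.35 (2.63-fold lower, adjusted p = 0.00105) and by 1.77 ± 0.36 (3.42-fold lower, adjusted p = 1.44e-04). Col23a1, another membrane collagen, rose in B16-IFNA4 by 0.70 ± 0.16 (adjusted p = 4.44e-04). In B16-IFNA9 its log2 fold change was 0.35 (adjusted p = 0.0661), past the threshold without B16-GFP replicate 1 or 5 or B16-IFNA9 replicate 10 (adjusted p from 0.00649 to 0.0292). With library totals it passed too (adjusted p = 0.0441). Col28a1, a collagen of peripheral nerve, had 0.10 and -0.40 (adjusted p = 0.699 and 0.117), and without B16-GFP replicate 7 it passed in B16-IFNA9 (adjusted p = 0.0177).

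The 6 genes under the count minimum were Col6a4, Col9a2, Col19a1, Col22a1, Col25a1 and Col26a1. Their medians lay between 1 and 13 counts in each type, their highest tumor held 42 counts, and Col25a1 and Col26a1 had tumors at 0 in every type. They were not tested, and a count of 0 allows up to 3 counts, counting error alone considered.

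Between the interferon types 2 of the 38 collagen genes were called, 1 higher and 1 lower in B16-IFNA9, against 17.8% of all genes tested, 10.5% higher and 7.25% lower. When only the tumors of both interferon types were fitted, 1 was higher and 6 lower. The median log2 fold change was -0.18 over the 38 genes and -0.01 over all genes. No collagen gene had tumors that did not overlap, against 2.83% of all genes. Col11a1 was higher in B16-IFNA9 by 1.54 ± 0.53 (adjusted p = 0.0409) and Col11a2 lower by 0.63 ± 0.21 (adjusted p = 0.0366). Both calls were fragile. That of Col11a1 was lost in 11 of 30 fits without 1 tumor, the largest shift coming without B16-IFNA9 replicate 6 (1.03, adjusted p = 0.147), and the other losses came without B16-IFNA9 replicate 3 or 4 or 8 of the B16-IFNA4 tumors (adjusted p from 0.0525 to 0.0937). That of Col11a2 was lost in 8 (adjusted p from 0.0588 to 0.0830), without B16-IFNA4 replicate 6, 7 or 10 or B16-IFNA9 replicate 4, 6, 7, 9 or 10. Without B16-GFP replicate 7, which enters through the shared spread, the scaling and the set of genes tested, 6 genes were called, beside 23.8% of all genes. The 4 added, all lower in B16-IFNA9, were Col4a5 (-0.22, adjusted p = 0.0326), Col4a6 (-0.48, adjusted p = 0.0332), Col8a2 (-0.53, adjusted p = 0.0438) and Col28a1 (-0.52, adjusted p = 0.0300). With all 30 tumors their adjusted p ran from 0.0629 to 0.17. Col4a5 also passed without B16-GFP replicate 10, B16-IFNA4 replicate 3 or B16-IFNA9 replicate 10 (adjusted p from 0.0397 to 0.0497).

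Further gene lists covered the making, handling and sensing of collagen, and their counts stand beside the 31.3% higher and 34.1% lower of all genes in B16-IFNA4 and the 26.9% higher and 28.9% lower in B16-IFNA9. Of 19 enzymes and chaperones that modify procollagen in the endoplasmic reticulum, 1 rose and 9 fell in B16-IFNA4, none rose and 8 fell in B16-IFNA9. Their summed level was highest among B16-IFNA9 tumors in replicate 10 (3751 CPM, against a median of 2782), which also had the highest melanocyte sum of its type (8916 CPM). B16-GFP replicate 7, with the lowest fibroblast and the highest melanocyte sum of its type (504 and 22818 CPM), had 4014 CPM, and the part of these cells was not tested. Without that B16-GFP tumor the counts were 1 and 9, and 0 and 8, and without that B16-IFNA9 tumor 1 and 9, and 0 and 9. P4hb, a subunit of prolyl 4-hydroxylase, fell by 0.57 (adjusted p = 7.63e-06) and 0.46 (adjusted p = 1.78e-04). Serpinh1, the collagen chaperone HSP47, fell by 0.53 (adjusted p = 5.92e-05) and 0.43 (adjusted p = 8.12e-04). Plod2, a lysyl hydroxylase of fibrillar collagen, fell in B16-IFNA4 by 0.76 (adjusted p = 1.06e-04) and was higher in B16-IFNA9 than in B16-IFNA4 by 0.54 (adjusted p = 0.0148). Of 5 genes for procollagen export, 1 rose and 2 fell in B16-IFNA4 and 2 rose and 2 fell in B16-IFNA9.

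Genes that act on collagen outside the cell were counted against the same shares of all genes. Of 6 genes that trim propeptides, 4 rose in B16-IFNA4 and 2 in B16-IFNA9, and none fell. Adamts14 and Adamts2, procollagen N-proteinases, rose in B16-IFNA4 by 0.96 (adjusted p = 1.20e-04) and 0.73 (adjusted p = 0.00207). Of 5 cross-linking genes, 3 rose in B16-IFNA4, led by Loxl4, a lysyl oxidase homolog (0.62, adjusted p = 0.00937), and none was called in B16-IFNA9. Of 8 proteins that bind fibrils, 6 rose in B16-IFNA4 and 4 in B16-IFNA9, and none fell. Postn, the matrix protein periostin, and Fmod, the proteoglycan fibromodulin, rose by 0.86 and 0.84 in B16-IFNA4 and by 0.53 and 0.81 in B16-IFNA9. B16-GFP replicate 7 had the lowest sum of its type in all 3 of these lists, 176 CPM for the trimming, 246 CPM for the cross-linking and 1942 CPM for the fibril-binding genes, and also of fibroblast markers (504 CPM), whose part was not tested. Without it, 3 and 2 trimming genes, 3 and 0 cross-linking genes and 6 and 3 fibril-binding genes rose in B16-IFNA4 and B16-IFNA9, and none fell.

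Collagen receptors and collagen-cutting enzymes stand against 65.4% and 55.7% of all genes called in the 2 comparisons. Of 7 receptors and uptake genes that passed the count minimum, 5 rose and none fell in B16-IFNA4, and 4 rose and 1 (Itgb1) fell in B16-IFNA9. Lair1, an inhibitory collagen receptor of leukocytes, rose by 2.51 (adjusted p = 3.15e-11) and 2.10 (adjusted p = 2.08e-09), beside leukocyte markers of which 6 of 7 rose in both comparisons. Their sum was 116 to 588 CPM in B16-GFP, 619 to 1344 CPM in B16-IFNA4 and 476 to 953 CPM in B16-IFNA9 tumors, and their part was not tested. Itga11, the α11 integrin of fibroblasts, rose by 0.95 and 0.90. All 7 degradation genes were called in B16-IFNA4, 5 higher and 2 lower, and 2 rose and 2 fell in B16-IFNA9. Mmp13, a collagenase, rose by 2.08 (adjusted p = 5.6e-07) and 1.31 (adjusted p = 4.29e-04). Mmp8, the neutrophil collagenase, rose in B16-IFNA4 by 2.08 (adjusted p = 4.09e-06), against 0.33 (adjusted p = 0.431) in B16-IFNA9, and the interferon types differed by -1.75 (adjusted p = 3.20e-04). Fap, a fibroblast protease, and Mmp9, a gelatinase, fell by 0.95 and 1.03 in B16-IFNA4.

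Of 10 genes of TGF-β signaling, which raises collagen synthesis in fibroblasts, 5 rose and none fell in B16-IFNA4, and 3 rose and 1 fell in B16-IFNA9, the rises near the 26.9% of all genes. B16-GFP replicate 7 had the lowest sum of its type for this list (518 CPM), and without it 3 rose and 2 fell in B16-IFNA9. Tgfb2, a ligand, and Tgfbr2, its receptor, rose by 0.66 and 0.65 in B16-IFNA4 and by 0.39 and 0.52 in B16-IFNA9. Of 8 fibroblast markers, 4 were higher, none lower and 4 not called in both comparisons, where 31.3% and 26.9% of all genes rose. Without B16-GFP replicate 7, 1 was lower in B16-IFNA9. Fap, a fibroblast gene outside this list, fell in B16-IFNA4. The 8 markers had sums of 504 to 2762, 2135 to 3301 and 1455 to 3091 CPM in B16-GFP, B16-IFNA4 and B16-IFNA9 tumors. Their part was not tested. Within a type, Col1a1 and Pdgfra, a fibroblast receptor, correlated in log2 CPM with r = 0.78, 0.43 and 0.65 in B16-GFP, B16-IFNA4 and B16-IFNA9 (rho = 0.77, 0.49 and 0.71). Permutation tests adjusted over 12 relations gave p = 0.0109, 0.281 and 0.0730 for r and 0.0376, 0.222 and 0.0464 for rho. Without the 2 tumors farthest from the median of Pdgfra, r in B16-GFP was 0.57 (permutation test, unadjusted p = 0.134, replicates 2 and 7 left out), and in B16-IFNA4 and B16-IFNA9 it was 0.15 and 0.58. Col1a1 and Col3a1 correlated with r = 0.91, 0.54 and 0.65 (adjusted p = 0.00168, 0.167 and 0.0730) and rho = 0.90, 0.33 and 0.72 (adjusted p = 0.00400, 0.401 and 0.0463), and without the 2 farthest tumors r was 0.90, 0.10 and 0.67.

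In RefSeq's promoter windows of GRCm38, from 250 bases before to 50 after each start, 35 of the 44 collagen genes had 38 windows. The GC box letters GGGCGG stood on either strand in 60.5% of them, against 35.7% of 32851 windows of all genes. CCAAT stood in 34.2% against 37.4%, TATAAA in 13.2% against 13.6%, and the Sox letters AACAAT in 2.63% against 10.7%. The letters of the interferon-stimulated response element stood in none of the 38 windows, against 3.44% of all. Letters in a window are a description and not a bound site.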

How the data were processed

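RNA of whole B16 tumors was extracted with TRIzol and RNeasy columns and made into TruSeq stranded mRNA libraries, which were read as single 50-base reads. The authors aligned reads with HISAT2 2.0.4 after FastQC 0.11.3, per the submitters' processing notes, and used summarizeOverlaps to count reads in genes. What they deposited are raw counts, 1 column a tumor. The notes name build mm10, whereas the study's methods name another, and the strand setting of the counting is not given in the sources used here. Ensembl identifiers were matched to GENCODE M21 (GRCm38), and 39495 of 39676 had a symbol, 36719 of them in the same version.

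Counts of genes with a mean of at least 10 were scaled by TMM and fitted in 1 model over all 30 tumors with edgeR 4.0.16 (R 4.3.3), by its quasi-likelihood test with Benjamini-Hochberg adjustment over 15926 genes. The test was checked on simulated counts. An adjusted p under 0.05 is called, and higher or lower refers to the first type named. Ratios and correlations within a type were tested by 2-sided permutation with 100000 resamples in SciPy 1.17.1, adjusted over 9 ratios and 12 relations. Ratios had 2 counts added to each gene. Alternatives were DESeq2 1.42.0 and its size factors, library totals, other count filters, only the tumors compared, the replicate number as a block, and each tumor left out. The pairing of Col9a1 with Tyrp1 took the place of a planned marker and was chosen after seeing the data. Genes were named by class, list and size of change. The collagen genes and all gene lists were chosen with earlier results of these data known. Bmp1, Tll2, Lox, Dcn, Lum, Kera, Ogn, Thbs2, Lama1, Nid1, Nid2, Itga1, Itga2, Tgfb3 and Hapln1 were not analysed here. The same holds for the planned markers Dct, Mlana, Pmel, Sox10, Acta2, Myh11, Krt1 and Adgre1. Levels between genes are compared per kilobase of the longest coding transcript. Standard errors, SDs and p-values measure the spread between these tumors.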

Additional observations from a re-analysis of the deposited data

Results flagged for a closer look

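In each of the 3 tumor types, the highest and lowest tumor was set against the other 9 for each of the 38 collagen genes, by Dixon's test of the gap to the nearest tumor. This found 21 values far from the rest in 114 groups of values, where chance alone gives about 1 in 20 groups, or 5.7. They came from 6 tumors, and values from the same tumor are not independent. Of the 21, 12 were B16-GFP replicate 7. On the log2 CPM scale it was lowest for Col1a2 (9.43), Col3a1 (10.58), Col4a6 (0.63), Col6a3 (6.86), Col6a5 (-1.38), Col6a6 (0.54) and Col7a1 (1.17), and also for Col12a1 (5.10), Col14a1 (5.46), Col17a1 (5.86) and Col24a1 (0.0127). It was highest for Col9a1 (4.09). B16-IFNA9 replicate 10 was lowest for Col4a6 (2.18), Col8a2 (0.67), Col17a1 (7.57), Col23a1 (3.32) and Col28a1 (1.10). The other 4 came from B16-IFNA4 replicate 8, highest for Col4a6 (4.45), B16-IFNA4 replicate 4, lowest for Col9a3 (0.78), B16-GFP replicate 3, lowest for Col10a1 (-3.10, from no count), and B16-IFNA9 replicate 5, lowest for Col24a1 (0.55).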

How the results depend on the processing

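Between B16-IFNA9 and B16-IFNA4, 2 collagen genes were called, 0 without a count filter, 7 (1 higher, 6 lower) when only the tumors compared were fitted, 1 with a replicate block, and 0 to 6 without 1 tumor. The count was 0 without B16-IFNA4 replicate 6 or 10 or B16-IFNA9 replicate 4 or 6, and 6 without B16-GFP replicate 7. The cause was not tested. Against B16-GFP, 19 to 20 genes were called in B16-IFNA4 and 12 to 17 in B16-IFNA9 under the other scalings, filters and tools. The log2 ratio of Col3a1 to Col1a1 between B16-IFNA4 and B16-GFP ran from -0.353 to -0.232 without 1 tumor, and it passed the threshold without B16-IFNA4 replicate 3 or 5 (permutation tests, adjusted p = 0.0406 and 0.0304). No label pairs the same-numbered tumors. The correlation of their deviations ran from -0.267 to 0.302 and was over 0.1 in 2, 2 and 0 of 10 pairs. Only 1, 1 and 0 pairs correlated best with their own number, and such values cannot exclude a shared batch. With the replicate block, the rise of the log2 ratio of Col4a1 to Col4a2 in B16-IFNA9, 0.11, had a p of 0.0615 (exact paired permutation test), and 20, 15 and 1 genes were called in the 3 comparisons. The block left Col11a1 uncalled in B16-IFNA4 against B16-GFP (edgeR, adjusted p = 0.0524) and in B16-IFNA9 against B16-IFNA4 (0.99, adjusted p = 0.305), and Col5a3 in B16-IFNA9 against B16-GFP (adjusted p = 0.0534). Against B16-GFP it added Col6a3 in B16-IFNA4 (edgeR, adjusted p = 0.0379) and Col1a2 and Col7a1 in B16-IFNA9 (adjusted p = 0.0230 and 0.0397). Counts limit the precision of 14 of the 38 genes, which had under 20 counts in at least 1 tumor, 11 of them called in at least 1 comparison. The list counts without B16-GFP replicate 7 or B16-IFNA9 replicate 3, 4, 6 or 10 were chosen after seeing the data.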
